A study of Mus musculus with 6 samples.

Results

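The genes that make and use microRNAs were examined in sorted bone marrow erythroblasts of mice that lack the miR-144/451 locus. The group held 10 genes chosen by name: Drosha, Dgcr8, Xpo5, Dicer1, Tarbp2, the 4 Argonaute genes Ago1, Ago2, Ago3 and Ago4, and Tnrc6a. All 10 were on the array, with 34 of the 45037 probe sets that are not controls. A probe set entered when the platform annotation gave it a single gene and that gene was on the list. No member probe set was annotated to several genes, and the annotation used current symbols for all 10.

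The study compared 3 knockout mice (KO, miR-144/451-null) with 3 wild-type mice (WT), with 1 Affymetrix Mouse Genome 430 2.0 array per mouse. Arrays are titled KO_493, KO_548 and KO_551, and WT_497, WT_504 and WT_550. Freshly isolated marrow cells were stained for Ter119, an erythroid surface marker, and CD71, the transferrin receptor. Large cells positive for both were sorted into Trizol LS, so each array reports a sorted population and not a pure cell type. Strain, age, litter and the extent of the deletion were not used here, since the labels used here give none of them. A label also pairs each title's number with a microRNA construct, and its meaning is unclear.

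MicroRNAs are cut from long primary transcripts in the nucleus by the RNase Drosha with its RNA-binding partner DGCR8. Exportin 5, encoded by Xpo5, carries the hairpin to the cytoplasm, where the RNase Dicer and its partner TRBP, encoded by Tarbp2, cut it to a duplex. Argonaute proteins hold the mature strand, and GW182 proteins such as TNRC6A link them to the enzymes that shorten messenger RNA tails. miR-451 is known for leaving this route after Drosha: the hairpin that Drosha leaves is too short for Dicer and is cut by the slicer Argonaute AGO2. The comparison therefore sets the loss of a locus that includes the AGO2-dependent miR-451 beside the genes of microRNA processing. The microRNAs themselves were not measured by probe sets used here, so the genotypes rest on the labels.

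The sequences of the missing microRNAs are shown because the mature strands sit differently in their hairpins. They come from RefSeq on GRCm38.p6 and lie on the plus strand of chromosome 11, at chr11:78073005-78073070 for Mir144 and chr11:78073170-78073241 for Mir451a. Both are microRNA genes. Capitals mark the mature strands within the hairpins.
Mir144: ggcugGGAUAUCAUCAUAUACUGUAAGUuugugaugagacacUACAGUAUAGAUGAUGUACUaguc
Mir451a: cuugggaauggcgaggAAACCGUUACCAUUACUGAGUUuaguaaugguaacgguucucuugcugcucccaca
In a predicted fold, the end loop of the Mir451a hairpin had 4 bases, and all 4 belonged to the 22-base mature miR-451a. The Mir144 hairpin had a predicted loop of 6 bases, and none of them belonged to either mature strand. The mature strand of miR-451a thus runs up its arm and through the loop, whereas the miR-144 strands sit on opposite arms. The RefSeq hairpins, of 72 bases for Mir451a and 66 for Mir144, also hold bases that Drosha removes, so their length is not that of the hairpin that meets Dicer.

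The mature strands are repeated with the seed, bases 2 to 8 from the 5′ end, in capitals, since the seed is the stretch that Argonaute proteins use most in pairing with targets.
mmu-miR-451a: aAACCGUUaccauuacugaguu
mmu-miR-144-3p: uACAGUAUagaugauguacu
mmu-miR-144-5p: gGAUAUCAucauauacuguaagu
The 3 seeds differ, so no pair of these microRNAs forms a seed family.

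Levels are log2 RMA intensities, and differences are log2 KO minus WT with limma's moderated standard error (SE). A probe set was called when its Benjamini-Hochberg adjusted p over all 45037 probe sets was under 0.05. The first principal component held 38.3% of the variance and separated the genotypes, with KO arrays at 24.9 to 45.9 and WT arrays at -60.2 to -22.3. WT_497 stood farthest out on it. The second component held 21.9% and crossed the genotypes. KO_493 was at 46.2 and WT_497 at 30.3 there, and the other arrays were at -30.9 to -4.0. The median log2 level was 5.62 to 5.68 on KO arrays and 5.73 to 5.78 on WT arrays. The median difference over all probe sets was -0.04, and 0.07 when each array was centred on its own median. The actin 3′ minus 5′ signal, a measure of RNA quality, was 1.82 to 1.86 on KO arrays and 1.65 to 1.67 on WT arrays, without overlap; its part in the results below was not tested. The same measure for Gapdh was 1.0 to 1.05 on KO arrays and 1.03 to 1.09 on WT arrays.

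Erythroblast markers were present: 7 of 10 listed genes were measured, with summed linear intensities of 36020 to 37441 on KO arrays and 37353 to 39508 on WT arrays. Of these, the alpha-globin probe set Hba-a1 lay under the 25th percentile of every array. Neutrophil markers were also bright, at 37109 to 41804 on KO arrays and 43661 to 46480 on WT arrays, and 8 of 8 had a lower mean in KO. So had 6 of 7 erythroblast, 6 of 6 macrophage, 4 of 4 T and NK, 4 of 5 B lineage and 2 of 5 megakaryocyte markers, and 56.4% of all probe sets. Sums for T and NK markers (4 of 5 measured) were 557 to 864 in KO and 1099 to 1398 in WT, and for B lineage markers (5 of 6) 2388 to 3403 in KO and 3620 to 6435 in WT. Macrophage markers (6 of 6) summed to 5169 to 6060 in KO and 5793 to 7544 in WT, and megakaryocyte markers (5 of 5) to 5356 to 6534 in KO and 5530 to 5942 in WT. None of these other-cell markers lay under the 25th percentile on all arrays, and 0 markers of any list were called. In such bulk samples, fewer cells of a type and less RNA per cell cannot be told apart, and the part of other cells in the member values was not tested.

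None of the 34 member probe sets was called by limma, against 0.355% of all probe sets. Without adjustment, 14 had a p under 0.05, of which 9 were higher and 5 lower in KO. Over the whole array 19.8% had such a p, 7.61% higher and 12.2% lower in KO. The lowest adjusted p was 0.0845. KO and WT arrays did not overlap for 16 member probe sets, 10 higher and 6 lower in KO, where 26.0% of all probe sets had groups that did not overlap, 10.7% higher and 15.3% lower. By mean, 19 were higher and 15 lower in KO, while 43.1% of all probe sets were higher and 56.4% lower. The median difference was 0.07 over the 34 probe sets and 0.02 over the 10 genes by their brightest probe set. For Ago3 that was 1435904_at, brightest only through its KO arrays. Its WT mean was 5.88, against 6.19 for 1441063_at and 6.12 for 1442009_at, so the gene median depends on this choice. Tnrc6a supplied 8 of the 10 separated probe sets that were higher, and its 9 probe sets read the same gene. When limma's prior variance was allowed to follow intensity and made robust, a setting termed the trend fit here, 4 member probe sets were called: 3 of Tnrc6a, higher in KO, and 1 of Tarbp2, lower in KO. That setting called 3.53% of all probe sets, 1.71% higher and 1.83% lower.

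**Figure D1:**
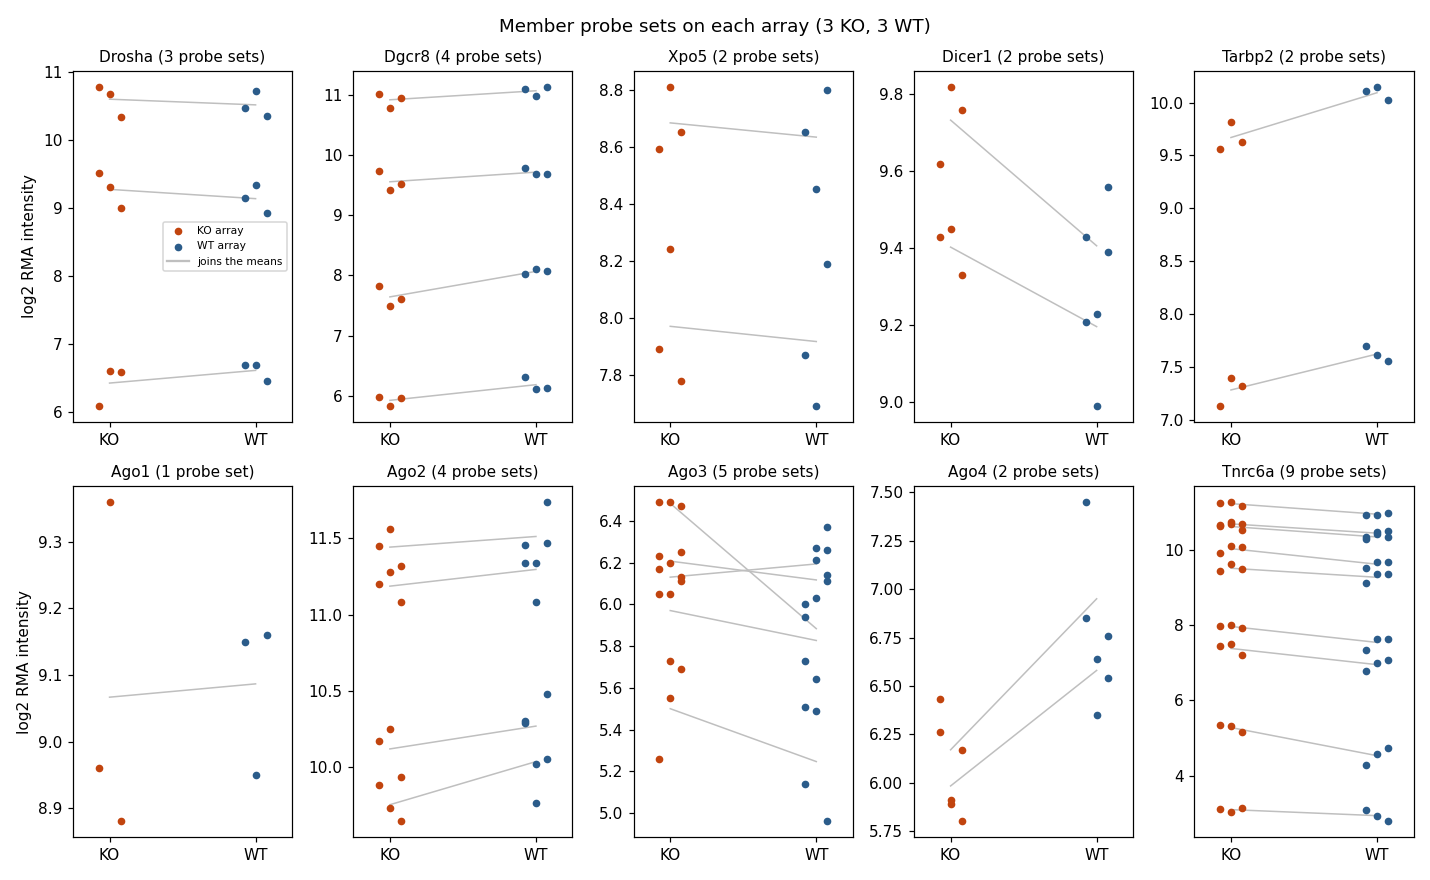
Log2 RMA intensity (vertical axis, its range differing between panels) of each member probe set on the 3 KO arrays (orange, left) and 3 WT arrays (blue, right), with 1 panel per gene; points are arrays and grey lines join the group means of a probe set. The lines of Tnrc6a are higher at their KO end in all 9 probe sets, those of Ago4 and Tarbp2 are lower at their KO end without overlap of the arrays, and those of Xpo5 and Drosha are nearly level beside the spread of their arrays.

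For nuclear processing, the enzyme gene Drosha and its partner gene Dgcr8 were read in turn, and the difference between them was not tested. The brightest probe set of Drosha, 1438505_s_at, was at 10.78, 10.67 and 10.34 on the KO arrays, against 10.47, 10.72 and 10.35 on the WT arrays. A second, 1428656_at, was at 9.51, 9.30 and 9.0 in KO and 9.15, 9.33 and 8.92 in WT. Both ordered the 6 arrays alike apart from KO_551 and WT_550, and the groups overlapped in each. Their differences were 0.08 ± 0.16 and 0.14 ± 0.17 (SE, n = 3 per group). The dimmer 1438440_at was at 6.08, 6.60 and 6.58 in KO and 6.68, 6.69 and 6.45 in WT, a difference of -0.19 ± 0.17. The 95% intervals were -0.30 to 0.46 for 1438505_s_at, -0.27 to 0.54 for 1428656_at and -0.59 to 0.22 for 1438440_at. Changes within the interval of a probe set were not resolved with 3 mice per group.

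Dgcr8 had a lower mean in KO on 4 of 4 probe sets, under both other scalings too, and none was called. The brightest, 1455311_at, was at 11.01, 10.78 and 10.95 in KO and 11.09, 10.97 and 11.13 in WT, with overlap at WT_504. The largest difference was on 1446169_at, with 7.82, 7.50 and 7.61 in KO and 8.02, 8.10 and 8.08 in WT. Every KO array lay below every WT array there, at -0.42 ± 0.12 (limma adjusted p = 0.141), a fold of 0.746. For 1422981_at the arrays were also apart, at 5.98, 5.83 and 5.97 in KO and 6.32, 6.11 and 6.13 in WT (-0.26 ± 0.11). The groups overlapped on the others: 1435439_at was at -0.16 ± 0.12 and 1455311_at at -0.15 ± 0.11. These 2 share a target accession in the annotation, so they are not independent readings. With each array centred on its median they were at -0.05 and -0.04.

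Xpo5 had overlapping groups on both of its probe sets. The brighter, 1428560_at, was at 8.59, 8.81 and 8.65 in KO and 8.65, 8.45 and 8.80 in WT. The other, 1451468_s_at, was at 7.89, 8.24 and 7.78 in KO and 7.87, 7.69 and 8.19 in WT. KO and WT arrays were interleaved on both, with differences of 0.05 ± 0.13 and 0.05 ± 0.18, each at 0.16 when arrays were centred on their medians. The limma 95% interval of the brighter one was -0.26 to 0.36.

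Dicer1, which encodes the RNase that most hairpins need and that miR-451 bypasses, had a higher mean in KO on both probe sets, under both other scalings too. The brighter, 1427941_at, was at 9.62, 9.82 and 9.76 in KO and 9.43, 9.23 and 9.56 in WT. All KO arrays were above all WT arrays, by 0.33 ± 0.13 on average, a fold of 1.25 (95% interval of the log2 difference 0.03 to 0.62). It was not called (limma adjusted p = 0.222). On 1460571_at the KO arrays were at 9.43, 9.45 and 9.33 and the WT arrays at 9.21, 8.99 and 9.39, so WT_550 lay above KO_551, and the difference was 0.21 ± 0.13. Without WT_504 it was 0.10.

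Tarbp2, the gene of Dicer's RNA-binding partner TRBP, pointed the other way. The probe set 1438952_x_at was at 9.56, 9.82 and 9.63 in KO and 10.11, 10.15 and 10.02 in WT. The second, 1423616_at, was at 7.13, 7.40 and 7.32 in KO and 7.70, 7.61 and 7.56 in WT. Each KO array was below each WT array on both, and the lower mean held under both other scalings. The differences were -0.42 ± 0.11 (limma adjusted p = 0.134), a fold of 0.746, and -0.34 ± 0.11 (adjusted p = 0.185). The trend fit called the brighter (adjusted p = 0.0499), a probe set whose suffix marks probes that may also match other transcripts. That call was the nearest to the threshold of the 4 it made among members. Prkra, which encodes PACT, the other double-stranded RNA-binding partner of Dicer, was at 7.77, 7.88 and 8.13 in KO and 7.71, 7.87 and 7.91 in WT, a difference of 0.10 ± 0.13.

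Among the Argonautes, Ago2 encodes the slicer that matures miR-451. Its brightest probe set, 1455294_at, was at 11.45, 11.56 and 11.32 in KO and 11.46, 11.34 and 11.74 in WT. The values of 1455389_s_at were 11.20, 11.28 and 11.08 in KO and 11.34, 11.08 and 11.47 in WT. Those of 1435636_at were 10.17, 10.25 and 9.93 in KO and 10.30, 10.02 and 10.48 in WT. On the fourth, 1426366_at, KO arrays were at 9.88, 9.73 and 9.64 and WT arrays at 10.29, 9.76 and 10.05. The groups overlapped on all 4, and in each of them WT_504 was the lowest WT array and KO_551 the lowest KO array. Differences ran from -0.28 ± 0.16 on 1426366_at to -0.07 ± 0.14 on 1455294_at, and with arrays centred on their medians 1455294_at was at 0.04 and 1455389_s_at at 0.00. The 95% interval of the brightest was -0.40 to 0.26 (limma adjusted p = 0.819). At this precision, a log2 difference of Ago2 messenger RNA beyond that interval was not seen on this probe set, and smaller ones were not resolved.

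Ago1, Ago3 and Ago4 encode Argonautes that bind microRNAs but are not known for the efficient slicing of AGO2, and they are consecutive protein-coding genes on chromosome 4. Ago1 had 1 probe set, at 8.96, 9.36 and 8.88 in KO and 9.15, 8.95 and 9.16 in WT. The KO arrays spanned the whole WT range, and the difference was -0.02 ± 0.15 (95% interval -0.39 to 0.35); its sign turned under both other scalings, at 0.09 and 0.01. Ago4 was below WT on every KO array for both probe sets. The brighter, 1453289_at, was at 6.43, 5.91 and 6.17 in KO and 7.45, 6.64 and 6.76 in WT, and 1429779_at was at 6.26, 5.89 and 5.80 in KO and 6.85, 6.35 and 6.54 in WT. Their differences were -0.78 ± 0.24 (fold 0.582, limma adjusted p = 0.165) and -0.60 ± 0.18 (fold 0.661, adjusted p = 0.159), and the lower mean held under both other scalings. WT_497, the array that stood farthest from the rest, was the highest on both; without it the differences were -0.53 and -0.46. Both probe sets share a target accession and count as 1 gene.

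Ago3 had 5 probe sets, and 1 of them was separated. Their group means were 5.25 to 6.48, near the array medians of 5.62 to 5.78. On 1435904_at the KO arrays were at 6.49, 6.49 and 6.47 and the WT arrays at 5.51, 6.03 and 6.11. The KO arrays were nearly equal and above every WT array, by 0.60 ± 0.17 (fold 1.52, limma adjusted p = 0.147). The lowest array was WT_497, where the probe set lay below that array's median of 5.78. Without WT_497 the difference was 0.41. The other 4 overlapped, with differences of -0.06 to 0.25, and the negative one, 1441063_at, turned positive under both other scalings. The probe sets of Ago3 therefore did not give a single size for this gene. Without a probe map, which transcript form each reads was not tested.

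**Figure D2:**
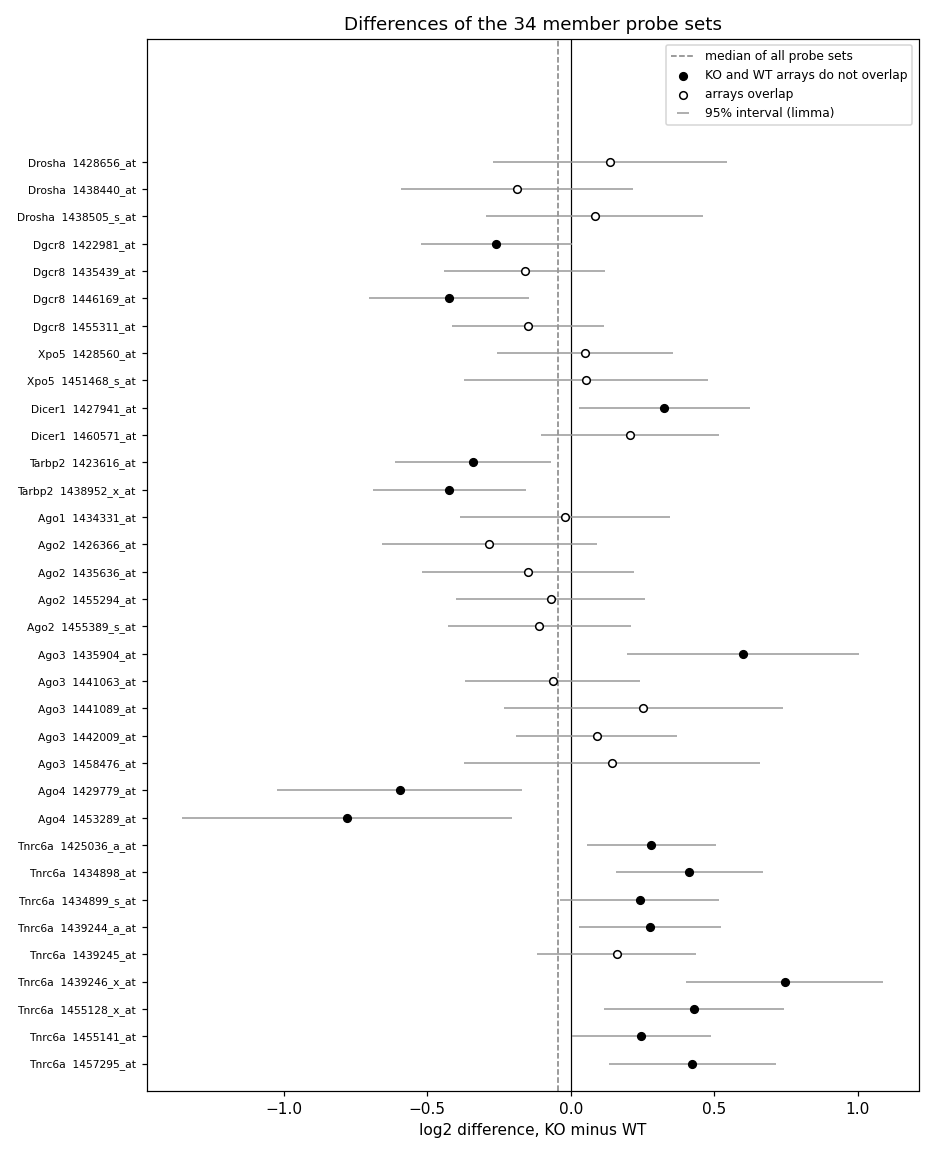
Log2 difference, KO minus WT (horizontal axis), of the 34 member probe sets with limma 95% intervals; filled points mark probe sets whose KO and WT arrays do not overlap, open points those that overlap, and the dashed line is the median of all probe sets at -0.04. Filled points lie to the right for Tnrc6a and to the left for Tarbp2 and Ago4, while the intervals of all 4 Ago2 probe sets include 0.

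Tnrc6a, which encodes the GW182 protein that recruits deadenylases to Argonaute, had a higher mean in KO on 9 of 9 probe sets, under both other scalings too. Its brightest, 1425036_a_at, was at 11.23, 11.26 and 11.16 in KO and 10.92, 10.92 and 10.97 in WT. The spread within groups was small (SD 0.05 in KO and 0.03 in WT), and the difference was 0.28 ± 0.09 (fold 1.21, limma adjusted p = 0.187). On 1434898_at the KO arrays were at 9.92, 10.08 and 10.07 and the WT arrays at 9.50, 9.67 and 9.66, a difference of 0.41 ± 0.11 (adjusted p = 0.132). The groups were apart on 8 of the 9 probe sets and overlapped on 1439245_at, which lay under the 25th percentile of every array.

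The largest Tnrc6a difference was on a dim probe set, 1439246_x_at, with 5.36, 5.33 and 5.15 in KO and 4.29, 4.57 and 4.74 in WT. It was 0.75 ± 0.14 (fold 1.68, limma adjusted p = 0.0845), and all 6 arrays were below their array's median there. The other 8 probe sets were at 0.16 to 0.43. Both 1439246_x_at and 1455128_x_at carry a suffix for probes that may also match other transcripts. That of 1434899_s_at marks probes that may match several transcripts. The trend fit called 1425036_a_at (adjusted p = 0.0399), 1434898_at (0.0491) and 1439246_x_at (0.0361). The probe sets are not separate evidence: 3 share 1 target accession and another 3 share a second. With each mouse left out in turn, the difference of the brightest stayed at 0.26 to 0.31, the narrowest such range of any member probe set, and it was not called in any of these fits.

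**Figure D3:**
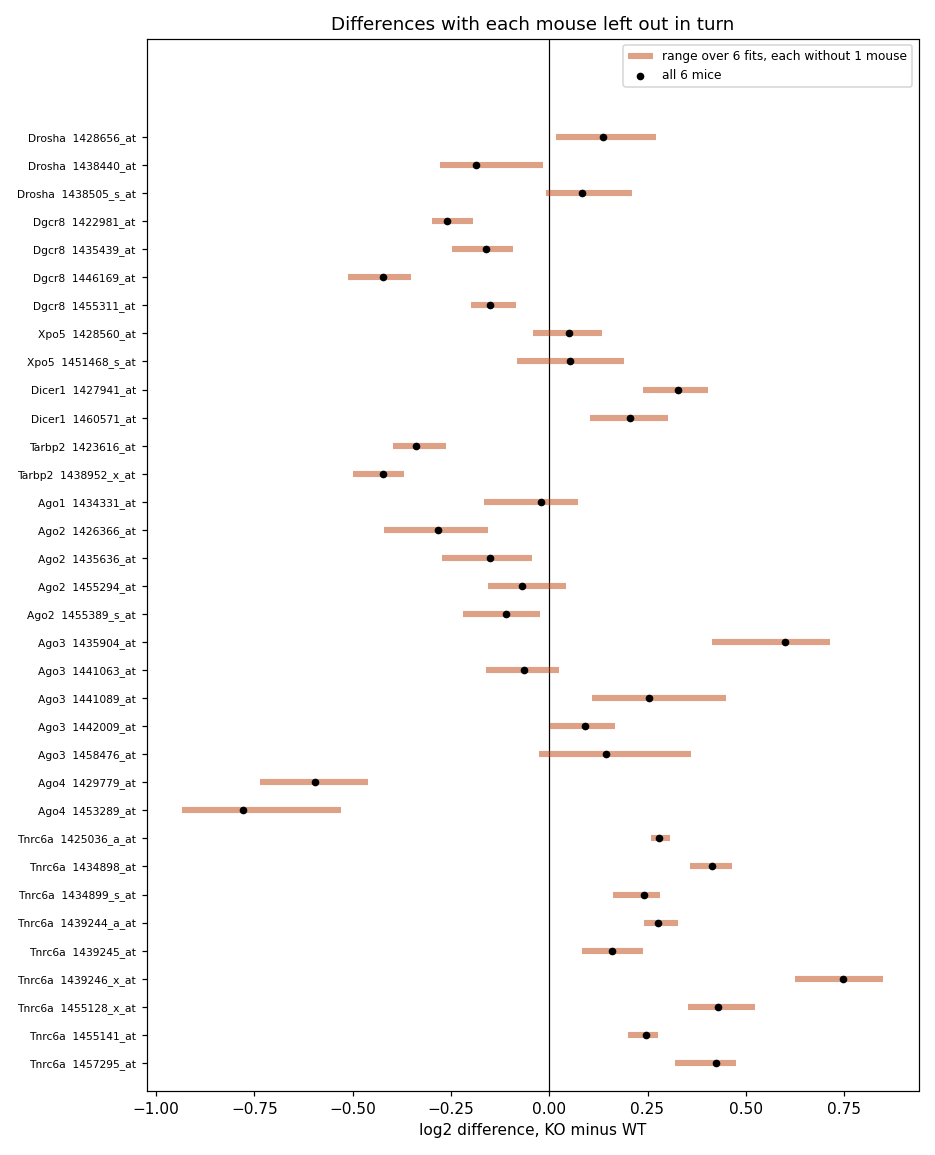
Log2 difference, KO minus WT (horizontal axis), of each member probe set with all 6 mice (black points) and its range over 6 fits that each leave out 1 mouse (bars). The bars of Tnrc6a, Tarbp2, Dgcr8, Ago4 and Dicer1 stay on 1 side of 0 for every probe set, and those of Xpo5 and Ago1 cross it.

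The sister genes of Tnrc6a had lower means in KO by their brightest probe sets, and the probe sets of Tnrc6c disagreed. Tnrc6c was at 8.88, 9.22 and 9.06 in KO and 9.28, 9.38 and 9.65 in WT, a difference of -0.38 ± 0.15 (limma adjusted p = 0.218). Its dim probe set 1440997_at was at 5.42, 5.32 and 5.20 in KO and 4.84, 4.87 and 4.86 in WT, which is the opposite direction with the arrays apart (0.46 ± 0.10, adjusted p = 0.108). The remaining 1460363_at overlapped at -0.22 ± 0.21, and the mean of the 3 Tnrc6c probe sets was at -0.05. Tnrc6b was at 10.35, 10.38 and 10.17 in KO and 10.44, 10.44 and 10.61 in WT, a difference of -0.20 ± 0.11 (adjusted p = 0.378), and -0.09 with arrays centred on their medians. Its other probe sets overlapped, at -0.11 ± 0.10 and -0.10 ± 0.13. On the brightest probe set of each gene every KO array was below every WT array. Neither gene was called, and the difference between the sister genes was not tested.

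The genes whose centred log2 values lay nearest to those of Ago2 over the 6 arrays were Ctu1, Wdr90 and Setd1b, with root mean square differences of 0.03 each. For Dicer1 they were Tmem33 (0.02), 1700122O11Rik (0.03) and Tpm1 (0.03). These are the nearest of 18192 genes by their brightest probe sets, with 6 arrays as the only points, and the ranking is a description.

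The rest of the pathway was read from a list of 50 further genes, of which 46 were measured under their symbols. By brightest probe set 0 were called, where 0.385% of all genes were, and 24 were higher and 22 lower in KO by mean, beside 43.7% and 55.7% of all genes. Unadjusted, 4 higher and 3 lower had a p under 0.05; among all genes 21.0% did, 8.34% higher and 12.7% lower. The groups did not overlap for 12, against 28.8% of all genes. The median difference was 0.03, beside -0.04 over all genes.

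Of these genes, Parn, Eif1ax and Safb2 were named for roles linked to miR-451 maturation. Adar was named for its small unadjusted p. Parn, a deadenylase known from human cells to trim miR-451 after slicing, was at 10.21, 10.48 and 10.43 in KO and 9.65, 10.14 and 9.92 in WT. All KO arrays were above all WT arrays, by 0.47 ± 0.16 (fold 1.39, limma adjusted p = 0.181). This probe set, 1437334_x_at, carries a suffix for probes that may also match other transcripts. WT_497 was its lowest array, and without WT_497 the difference was 0.34. A second Parn probe set, 1425422_a_at, gave 0.57 ± 0.19, with KO_493 at 8.62 just above WT_504 at 8.61. Eif1ax, a translation initiation factor reported to aid AGO2-dependent maturation of miR-451, was at 11.48, 11.44 and 11.56 in KO and 11.41, 11.48 and 11.24 in WT, with overlap and a difference of 0.12 ± 0.11. Its probe sets disagreed: 1437071_at was at 0.60 ± 0.13 with the arrays apart (adjusted p = 0.103), and 1449576_at overlapped at -0.11 ± 0.11. Safb2, a nuclear scaffold protein linked to the processing of clustered microRNA hairpins, was at 10.14, 10.03 and 10.10 in KO and 10.04, 10.05 and 10.24 in WT. Its difference was -0.02 ± 0.11, and 0.09 with arrays centred on their medians. Adar, which edits adenosines in double-stranded RNA, was at 8.44, 9.22 and 9.12 in KO and 9.35, 9.49 and 9.80 in WT, a difference of -0.62 ± 0.23 (adjusted p = 0.214); without KO_493, its lowest array, it was -0.38. The other Adar probe sets overlapped, at -0.14 ± 0.17 for 1425405_a_at and -0.46 ± 0.22 for 1439276_at, and the mean of the 3 was at -0.41.

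Deadenylation and decapping genes, the effectors that GW182 proteins recruit, were higher in KO by mean for 9 of 11 measured, beside 43.7% of all genes. An unadjusted p under 0.05 was reached by 3 of the 11, all higher, beside 8.34% of all genes that were higher with such a p. The role was 1 of 5 drawn up after the values were seen, and it held the largest share of higher genes of the 5, so these counts are a description. Cnot8, a deadenylase subunit of the CCR4-NOT complex, was at 10.53, 10.30 and 10.49 in KO and 9.94, 9.61 and 9.93 in WT. KO arrays were above WT arrays by 0.61 ± 0.13 (fold 1.53, limma adjusted p = 0.102). A second Cnot8 probe set gave 0.56 ± 0.12. Cnot7, the paralogous deadenylase, was at 11.15, 11.07 and 11.15 in KO and 10.85, 10.81 and 10.71 in WT, a difference of 0.33 ± 0.10 (adjusted p = 0.155). This probe set, 1423641_s_at, carries a suffix for probes that may match several transcripts. Of the other Cnot7 probe sets, 1460665_a_at was at 0.29 ± 0.12 with the arrays apart and 1430519_a_at overlapped at 0.13 ± 0.18; without the less specific probe sets, the gene stood at 0.13 (adjusted p = 0.743). Cnot6, another deadenylase subunit, chosen for mention after its values were seen, was at 11.69, 11.65 and 11.64 in KO and 11.37, 11.45 and 11.43 in WT, a difference of 0.24 ± 0.09 (adjusted p = 0.222), and its other 3 probe sets were at 0.23 to 0.37 with the arrays apart. These 3 were the pathway genes that the trend fit called (adjusted p = 0.0231, 0.031 and 0.0392), where it called 4.42% of all genes and 2.37% as higher, and all 3 kept their sign under both other scalings. Of the 46 genes, Cnot8, Cnot6, Ddx5 (0.12) and Tnrc6c (-0.38) lie on chromosome 11, which also carries the deleted locus.

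**Figure D4:**
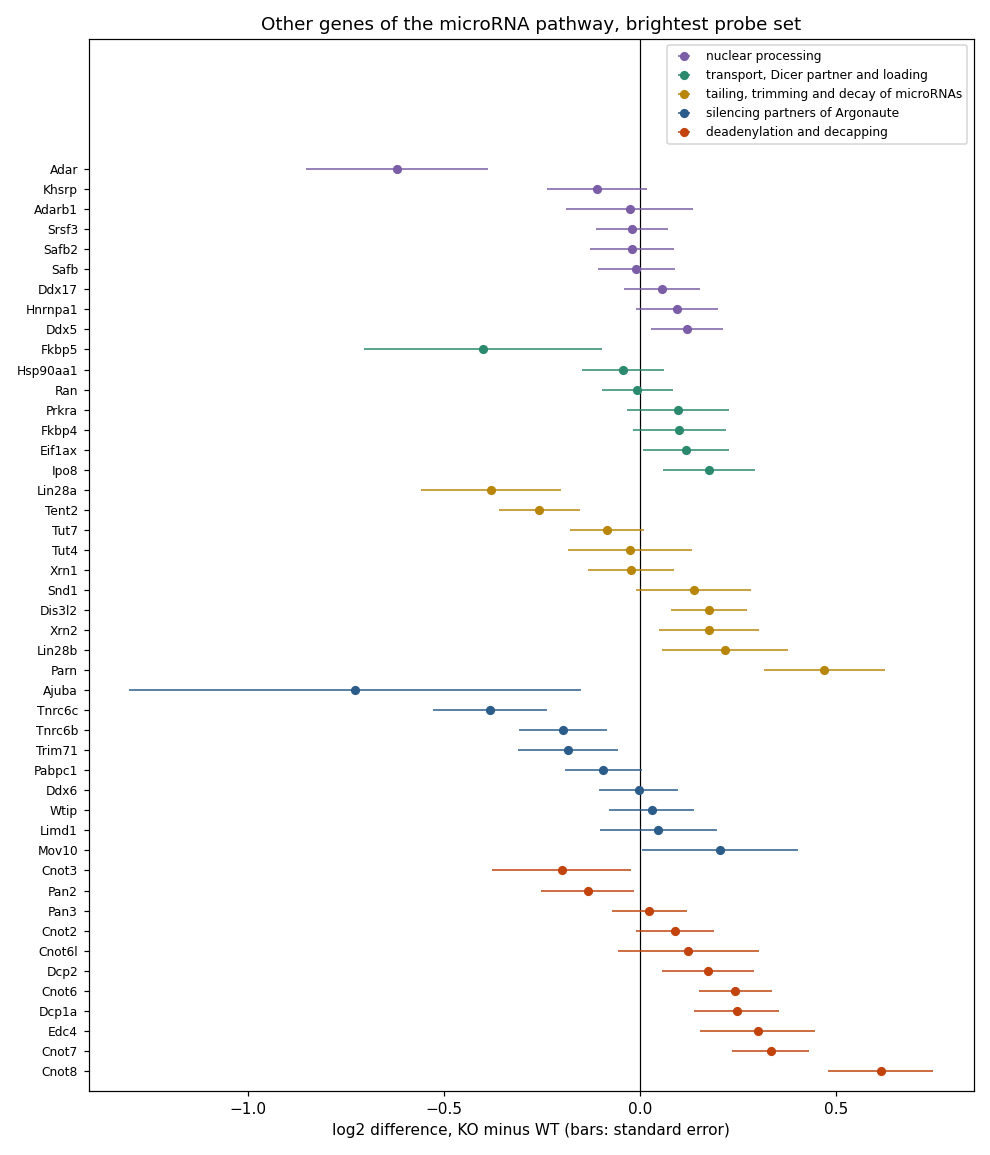
Log2 difference, KO minus WT (horizontal axis), of the 46 other microRNA pathway genes by brightest probe set, with limma standard errors as bars and colours for role; roles were assigned after the values were seen. Deadenylation and decapping genes lie at -0.20 to 0.61 with 9 of 11 above 0, and silencing partners of Argonaute at -0.73 to 0.20 with 3 of 9 above 0.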

How the data were processed

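Total RNA of 6 mice was hybridised to 1 array each. The deposited table gives 1 intensity per probe set and array, which the authors computed by RMA per the submitters' processing notes; software, version and background step are not given in the sources used here. RMA normalizes all arrays jointly, and no value here is an absolute RNA amount. The deposited intensities were linear, and 100% of them equalled 2 to a 2-decimal exponent within 0.01, so log2 values were recovered without a pseudocount. Of 45101 probe sets, 64 controls were left out. Genes came from GEO's platform annotation, updated through gene identifiers to RefSeq symbols of GRCm38.p6 (99.4% of 34945 single-gene probe sets matched); 932 probe sets named several genes and were not used for genes. A gene's brightest probe set by mean over 6 arrays stood for it.

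KO was set against WT by limma 3.58.1 (R 4.3.3, lmFit and eBayes without covariates). The p-values were adjusted by Benjamini-Hochberg across all 45037 probe sets. The fit was also run on simulated data with planted log2 shifts larger than any member difference. That run cannot show the power of the fit at the sizes seen here. SDs are over 3 mice. Detection calls were not used, and the number of arrays limits precision. The labels do not say whether the mice came from separate litters. The p-values treat the mice as independent, and any effect of shared litters on them was not tested. Folds were predicted with RNAfold 2.7.2 from RefSeq sequences.

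Named genes were all members with every probe set, 7 pathway genes fixed for their roles (Erh was not analysed here), and the 4 pathway genes with the smallest p. Cnot6 and Ddx5 were named after their values were seen. The members and lists were chosen with earlier results of these data known. Alternatives were an intensity trend with robust prior, renewed quantile normalization, median centring, a level filter, a gene's mean probe set, omission of less specific probe sets, and leaving out each mouse.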

Additional observations from a re-analysis of the deposited data

How the results depend on the processing

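No member probe set was called under renewed quantile normalization, median centring, the level filter (31 of 34 kept) or any fit without 1 mouse. The filter left out Tnrc6a 1439246_x_at, which had the lowest limma adjusted p of the members (0.0845), so it was not tested there. Ago3 1441089_at and Tnrc6a 1439245_at were left out too. No member gene was called by the mean of its probe sets or without the less specific probe sets. The trend fit called 4 of 34 probe sets and 2 of 10 genes, beside 3.53% of all probe sets and 4.42% of all genes. The pathway count was 0 except with the trend (3) and the level filter (1, Cnot8, adjusted p = 0.0491). Over all 45037 probe sets 160 were called, against 1592 with the trend, 411 with median centring, 234 with quantile normalization and 8 to 23 without 1 mouse (lowest without KO_548). The level filter called 1012 of the 22514 probe sets that it kept. Higher calls made up 51.9% of the 160, 48.3% with the trend, 57.3% with the level filter, 67.1% with quantile normalization, 77.9% with centring and 26.1% to 52.2% without 1 mouse. The median member difference of 0.07 was 0.11 with quantile normalization, 0.18 with centring and -0.03 to 0.07 without 1 mouse, negative without WT_504. Signs turned with centring for Ago1 (0.090), Ago2 1455294_at (0.040), Ago3 1441063_at (0.047) and Safb2 (0.090), while Ago2 1455389_s_at came to 0.000; they turned with quantile normalization for Ago1 (0.012) and Ago3 1441063_at (0.041); all were within 1 SE of 0 before. Leaving out 1 mouse turned signs in ranges of -0.167 to 0.073 for Ago1, -0.157 to 0.043 for Ago2 1455294_at, -0.160 to 0.025 for Ago3 1441063_at, -0.025 to 0.360 for Ago3 1458476_at, -0.008 to 0.212 for Drosha 1438505_s_at, -0.042 to 0.133 and -0.082 to 0.190 for Xpo5, -0.005 to 0.175 for Prkra and -0.055 to 0.045 for Safb2. The cause of these shifts was not tested. No paired analysis was possible because the KO and WT titles share no number.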
